A study of Mus musculus with 16 samples.

Results

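Wild type (WT) reporter mice were used to compare the transcriptome of regulatory T cells (Tregs) with that of conventional T cells (Tconv) on 8 of the 16 arrays of the study. The arrays were taken by their labels, 4 labelled as WT Treg and 4 as WT Tconv. The comparison itself was chosen with earlier results of these data known. Cells were taken from the spleen of NOD/LtJ mice at an age of 6 weeks, a strain that develops autoimmune diabetes. Both WT groups carried the transgene Tg(Foxp3-EGFP/cre)1aJbs, which expresses a fusion of green fluorescent protein and Cre recombinase under Foxp3 control, so the WT mice are transgenic as well. The other 8 arrays came from KI mice with the knock-in allele Foxp3tm2Ayr on the same background and of the same age, again 4 of Tregs and 4 of Tconv. One gate, positive for CD3 and CD4 and negative for GFP, is given in the labels for Tregs and Tconv alike, which leaves unclear how the Tregs were gated. Whether each array stands for its own mouse is not stated, and p-values therefore measure only the spread between these samples, which may be technical.

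Tregs are CD4 T cells that restrain immune responses and depend on the transcription factor Foxp3. They carry the high-affinity receptor for interleukin 2 (IL-2), of which they make little themselves, and the inhibitory receptor CTLA-4. Tconv are the CD4 T cells without Foxp3, most of them resting in the spleen of a young mouse, and supply help, cytokines and, after activation, effector cells.

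Expression is given as the deposited log2 value of a gene, a difference as Treg minus Tconv on that log2 scale, and the error of a difference as its standard error (SE). The 23 control probe sets that target no transcript lay at a median of 2.60, with a maximum of 4.71. A level under about 5 thus lay near background, and a difference from such a level understates the true fold.

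The marker genes bore out the labels. Foxp3 measured 9.74, 10.16, 9.81 and 9.72 in the 4 Treg arrays and 4.24, 4.96, 4.51 and 4.80 in the 4 Tconv arrays. Pde3b, a phosphodiesterase that breaks down cyclic AMP, went the other way, with 6.54, 6.25, 6.83 and 6.55 in Tregs and 10.53, 10.55, 10.64 and 10.73 in Tconv. All 8 Treg marker genes matched on the array were higher in Tregs. Cd3d, a CD3 subunit gene of the T cell receptor complex, lay between 12.12 and 12.34 on all 8 arrays. Both groups thus carried this defining T cell gene at overlapping levels.

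Of 8139 genes tested, 2818 (34.6%) passed at an adjusted p under 0.05 in limma, 1360 (16.7%) higher and 1458 (17.9%) lower in Tregs. Small differences were more often falls and large ones more often rises. The median difference of the genes that passed was 0.59 among rises and -0.40 among falls. At a difference of at least 1, which is a doubling, 376 genes were higher and 142 lower, and at a difference of at least 3 the counts were 29 and 15. Across probe sets, the correlation between arrays was 0.992 to 0.996 within Tregs, 0.993 to 0.996 within Tconv and 0.983 to 0.987 between them. The Treg and Tconv arrays did not overlap for 3025 genes (37.2%), of which 2526 passed (31.0% of those tested). In bulk samples such as these, fewer cells of a type and less RNA per cell cannot be told apart.

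**Figure D1:**
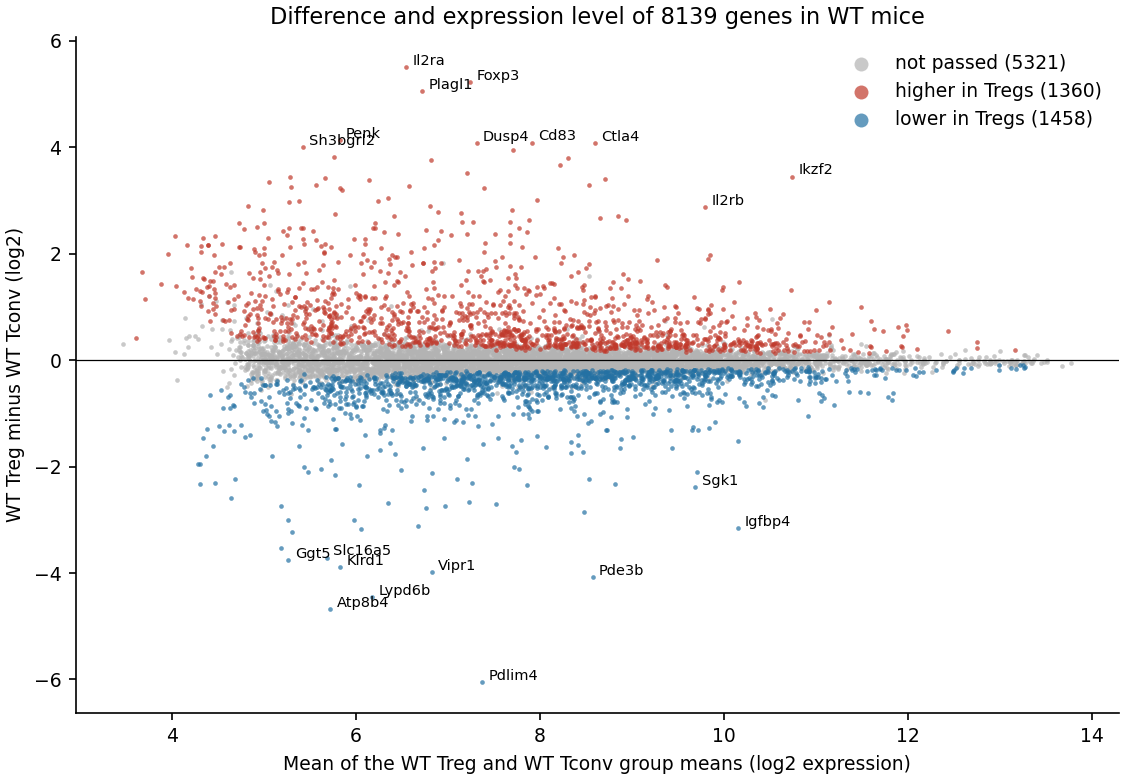
Treg minus Tconv difference (log2, vertical) against the mean of both WT group means (log2 expression, horizontal) for 8139 genes, each point a gene, red where it passed as higher in Tregs, blue where lower and grey where it did not pass. Il2ra (5.50) and Pdlim4 (-6.05) lie at the top and bottom, and most of the 2818 genes that passed lie within 1 of the zero line.

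The genes with the largest rises were the IL-2 receptor alpha chain and a set of transcription factors, surface receptors and signalling inhibitors. Il2ra measured 9.24, 9.43, 9.39 and 9.13 in Tregs and 4.13, 3.85, 3.49 and 3.75 in Tconv. The lowest Treg array thus lay 5.00 above the highest Tconv array, the widest gap among the 20 largest rises, and the difference was 5.50 (SE 0.132, adjusted p = 2.25e-15 in limma). Foxp3 followed with 5.23 (SE 0.154, adjusted p = 5.06e-14 in limma).

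Plagl1, an imprinted gene for a zinc finger transcription factor, had nearly the same difference as Foxp3. It measured 9.22, 9.50, 9.16 and 9.12 in Tregs and 4.11, 4.16, 4.66 and 3.86 in Tconv. Every Tconv array lay near background, and the difference was 5.05 (SE 0.175, adjusted p = 1.81e-13 in limma). Penk, the precursor of the enkephalin opioid peptides, measured 7.95, 7.94, 8.47 and 7.20 in Tregs and 3.52, 3.40, 4.16 and 3.95 in Tconv. Its Treg arrays were spread more widely, with the lowest value on WT Treg 4, and the difference was 4.14 (SE 0.246, adjusted p = 2.47e-10 in limma).

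Ctla4 and Cd83, both genes for surface molecules of activated cells, were already above background in Tconv. Ctla4 measured 10.73, 10.69, 10.47 and 10.68 in Tregs and 6.45, 6.49, 6.49 and 6.81 in Tconv, a difference of 4.08. Cd83 measured 10.00, 10.05, 10.08 and 9.73 in Tregs and 6.47, 5.19, 5.87 and 5.96 in Tconv, a difference of 4.09. For both genes the Treg arrays lay close together and far above all Tconv arrays.

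Negative regulators of signalling stood among the largest rises. Dusp4, a phosphatase that switches off MAP kinases, measured 9.41, 9.61, 9.46 and 8.94 in Tregs and 5.46, 5.33, 5.37 and 4.95 in Tconv. Socs2, an inhibitor of cytokine receptor signalling, measured 9.64, 9.76, 9.87 and 9.44 against 5.52, 5.92, 5.45 and 6.07. Rgs1, which shortens signals from G protein coupled receptors, measured 10.04, 10.26, 10.18 and 10.36 against 6.63, 6.00, 5.99 and 7.00. Their differences were 4.08 (SE 0.171), 3.94 (SE 0.219) and 3.80 (SE 0.314), and the Tconv arrays of Rgs1 were the most spread.

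The other rises among the 20 lay between 3.34 and 4.00. They were Sh3bgrl2 (4.00), the guanylate-binding protein Gbp2b (3.82), the inhibitory receptor Klrg1 (3.76), the Ikaros family factors Ikzf4 (3.67) and Ikzf2 (3.45), and the lubricating proteoglycan Prg4 (3.51). The cell surface proteoglycan Sdc4 (3.45), Irak1bp1 (3.43), the costimulatory receptor Tnfrsf4 (OX40, 3.41), the GTPase activator Arhgap20 (3.39) and the iron reductase Cybrd1 (3.34) completed them. In 11 of the 20 the Tconv mean lay under 5. The smallest gap between the lowest Treg and the highest Tconv array was 2.54, for Klrg1.

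The largest difference of either sign was a fall. Pdlim4, a PDZ and LIM domain protein of the actin cytoskeleton, measured 4.14, 4.16, 4.42 and 4.70 in Tregs and 10.39, 10.43, 10.46 and 10.33 in Tconv. It was thus far above background on every Tconv array and near background on every Treg array. The difference was -6.05 (SE 0.201, adjusted p = 1.3e-13 in limma), and the gap of 5.63 was the widest among the 20 largest falls.

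Atp8b4, of the family of lipid flippases that move phospholipids across membranes, measured 3.11, 3.52, 3.05 and 3.89 in Tregs and 8.15, 8.09, 8.03 and 7.97 in Tconv. The difference was -4.67 (SE 0.223, adjusted p = 1.36e-11 in limma), with no Treg array above background. Lypd6b, a small membrane-anchored protein of the Ly6 family, measured 3.84, 4.12, 3.83 and 4.01 against 8.46, 8.33, 8.42 and 8.41, a difference of -4.46 (SE 0.138). Pde3b fell by 4.07 (SE 0.126) and, unlike these genes, stayed above background in Tregs.

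A receptor for the neuropeptide VIP was also near background in Tregs. Vipr1 measured 4.66, 4.62, 4.93 and 5.10 in Tregs and 8.64, 8.82, 9.05 and 8.77 in Tconv, a difference of -3.99 (SE 0.119). Igfbp4, which binds insulin-like growth factors, measured 8.69, 8.42, 8.53 and 8.66 in Tregs and 11.78, 11.83, 11.66 and 11.64 in Tconv, a difference of -3.15 (SE 0.106), so it remained well expressed in Tregs.

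The other falls among the 20 lay between -3.88 and -2.70. They were the NK-type receptor Klrd1 (-3.88), the glutathione and leukotriene enzyme Ggt5 (-3.76), the carboxylate transporter family member Slc16a5 (-3.71), Nacc2 (-3.53), the interleukin 36 receptor Il1rl2 (-3.23) and Mctp2 (-3.17). Arhgap29 (-3.12), the hypoxia-inducible factor Epas1 (-3.01), the motor protein Myo10 (-3.00), Tdrp (-2.85), the chemokine receptor Cxcr6 (-2.78), the amyloid precursor App (-2.75), the sialyltransferase St3gal6 (-2.74) and Pxylp1 (-2.70) completed them. In 13 of the 20 the Treg mean lay under 5. App had the smallest gap, 1.25, with Treg values of 4.76, 5.27, 5.40 and 6.96 and an SE of 0.452. Without WT Treg 4, its highest Treg array, the difference was -3.21 (SE 0.404).

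**Figure D2:**
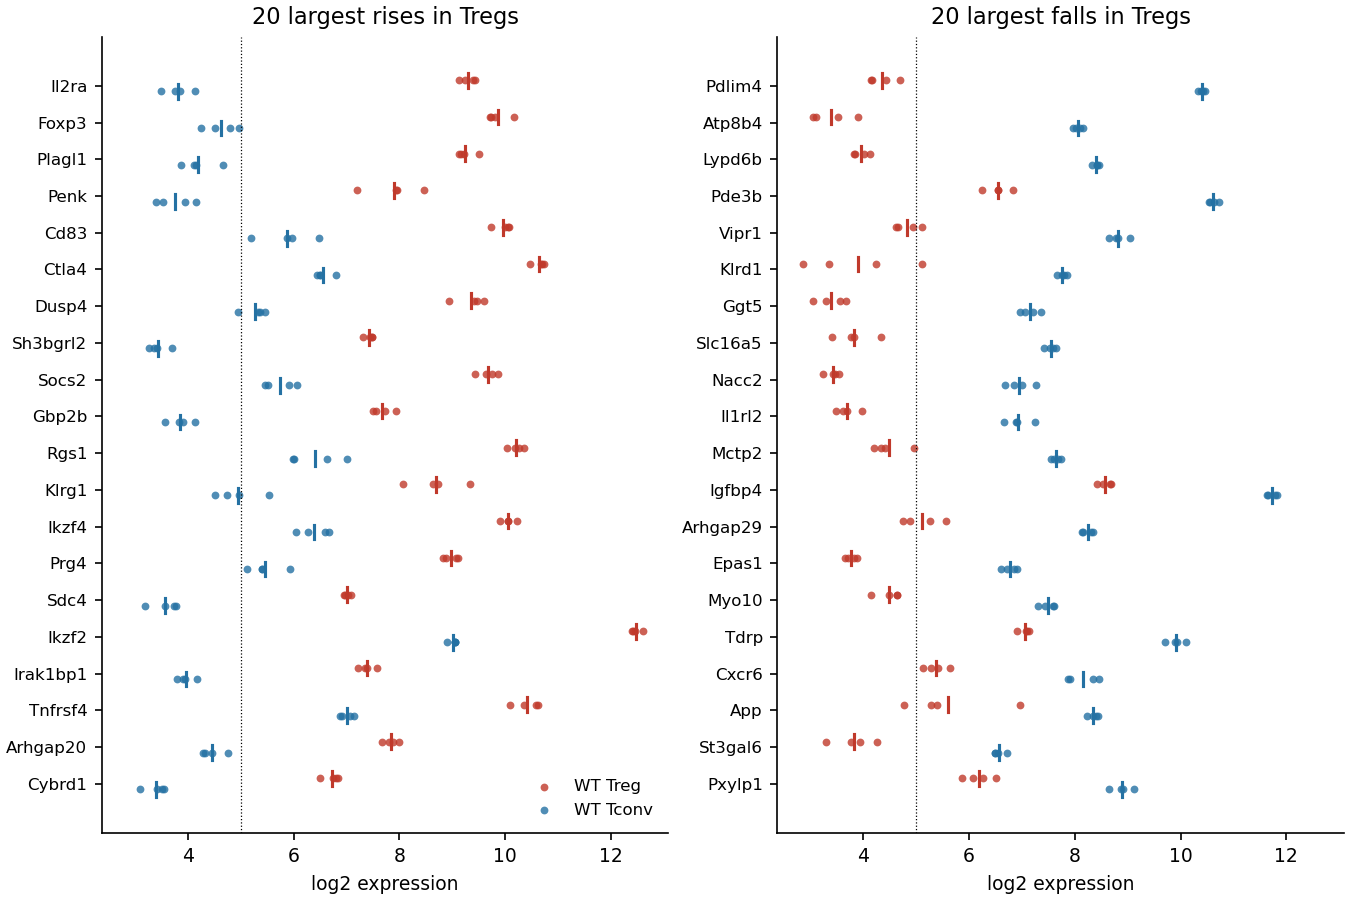
log2 expression on each of the 8 WT arrays for the 20 largest rises (left) and 20 largest falls (right), Tregs in red and Tconv in blue, with short lines at the group means and a dotted line at 5, near background. No gene overlaps between the groups. The gaps run from 2.54 (Klrg1) to 5.00 (Il2ra) on the left and from 1.25 (App) to 5.63 (Pdlim4) on the right.

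The sequence upstream of both kinds of gene is shown for 2 of the 20 largest rises, Il2ra and Ctla4, and for the 2 largest falls, Pdlim4 and Atp8b4. Each line gives the 250 bases before the RefSeq start of the gene on its own strand (build GRCm38.p6), with matches to 1 of 7 searched motifs in capitals. The motifs were forkhead GTAAACA, RUNX TGTGGT, AP-1 TGANTCA, NFAT GGAAAA, TCF/LEF CTTTGA, ETS AGGAAG and CRE TGACGT, each on both strands, none of which contains another.
Il2ra, chr2:11642542-11642791, plus strand: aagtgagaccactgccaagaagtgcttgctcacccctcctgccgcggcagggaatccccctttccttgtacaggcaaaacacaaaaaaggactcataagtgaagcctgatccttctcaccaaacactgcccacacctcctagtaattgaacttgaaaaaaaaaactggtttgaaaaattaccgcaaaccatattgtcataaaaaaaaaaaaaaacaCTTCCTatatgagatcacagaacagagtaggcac
Ctla4, chr1:60908775-60909024, plus strand: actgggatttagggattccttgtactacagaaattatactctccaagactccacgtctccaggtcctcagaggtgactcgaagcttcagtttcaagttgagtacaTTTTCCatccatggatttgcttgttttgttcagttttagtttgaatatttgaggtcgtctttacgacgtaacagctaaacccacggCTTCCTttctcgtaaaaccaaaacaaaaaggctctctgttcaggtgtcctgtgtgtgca
Pdlim4, chr11:54069018-54069267, minus strand: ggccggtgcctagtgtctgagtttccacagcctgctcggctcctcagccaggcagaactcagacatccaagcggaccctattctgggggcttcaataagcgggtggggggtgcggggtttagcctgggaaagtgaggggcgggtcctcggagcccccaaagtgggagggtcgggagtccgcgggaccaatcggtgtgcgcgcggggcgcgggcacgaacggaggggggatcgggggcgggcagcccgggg
Atp8b4, chr2:126491554-126491803, minus strand: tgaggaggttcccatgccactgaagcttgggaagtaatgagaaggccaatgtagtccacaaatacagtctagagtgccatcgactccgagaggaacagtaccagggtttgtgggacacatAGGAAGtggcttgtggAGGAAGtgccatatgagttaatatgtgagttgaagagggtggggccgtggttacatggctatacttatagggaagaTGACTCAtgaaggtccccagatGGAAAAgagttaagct

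In these windows Il2ra held an ETS match and Ctla4 an NFAT and an ETS match, all on the minus strand of the window. Atp8b4 held 2 ETS matches, an AP-1 match and an NFAT match, and the window of Pdlim4 held none of the 7. The Pdlim4 window was rich in CpG, the dinucleotide that can be methylated, with 21 CpG and 69.2% G and C, while those of Il2ra and Atp8b4 held 3 CpG each and that of Ctla4 held 7. A match is a description of letters and not evidence of binding.

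RefSeq windows of 300 bases, which also take in 50 bases after the start, were found for 6688 of the 8139 genes tested. Forkhead letters stood in 5.00% of the windows of genes higher by at least 1 in Tregs, in 1.88% of those of genes lower by at least 1 (3 of 160 windows), in 2.70% of those of genes that did not pass and in 3.65% of all 32851 windows. Over all genes that passed, the forkhead shares lay closer, 3.18% of windows of higher and 2.32% of lower genes. The CRE letters stood in 8.75%, 3.75%, 14.1% and 7.51% in the same order as the first forkhead shares. The RUNX shares were 15.5%, 11.2%, 12.1% and 16.8%, those of AP-1 7.75%, 6.88%, 4.37% and 7.81%, and those of NFAT 20.5%, 19.4%, 20.9% and 23.4%. The TCF/LEF shares were 15.2%, 12.5%, 11.4% and 16.0%, and those of ETS 36.8%, 36.2%, 33.9% and 35.4%. Windows with 5 or fewer CpG made up 24.2% for genes higher by at least 1, 20.6% for those lower by at least 1, 8.87% for those that did not pass and 43.6% of all. Both kinds of changed gene thus had CpG-poor windows more often than tested genes that did not pass, and less often than all windows. A gene can have several windows, and no test was made.

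To describe functions, 37 gene lists were counted, beside 34.6% of all genes tested. Their 647 different tested genes included 235 that were higher and 124 that were lower, which is 55.5%. The lists were drawn up with earlier results of these data known, so this share is not independent evidence.

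**Figure D3:**
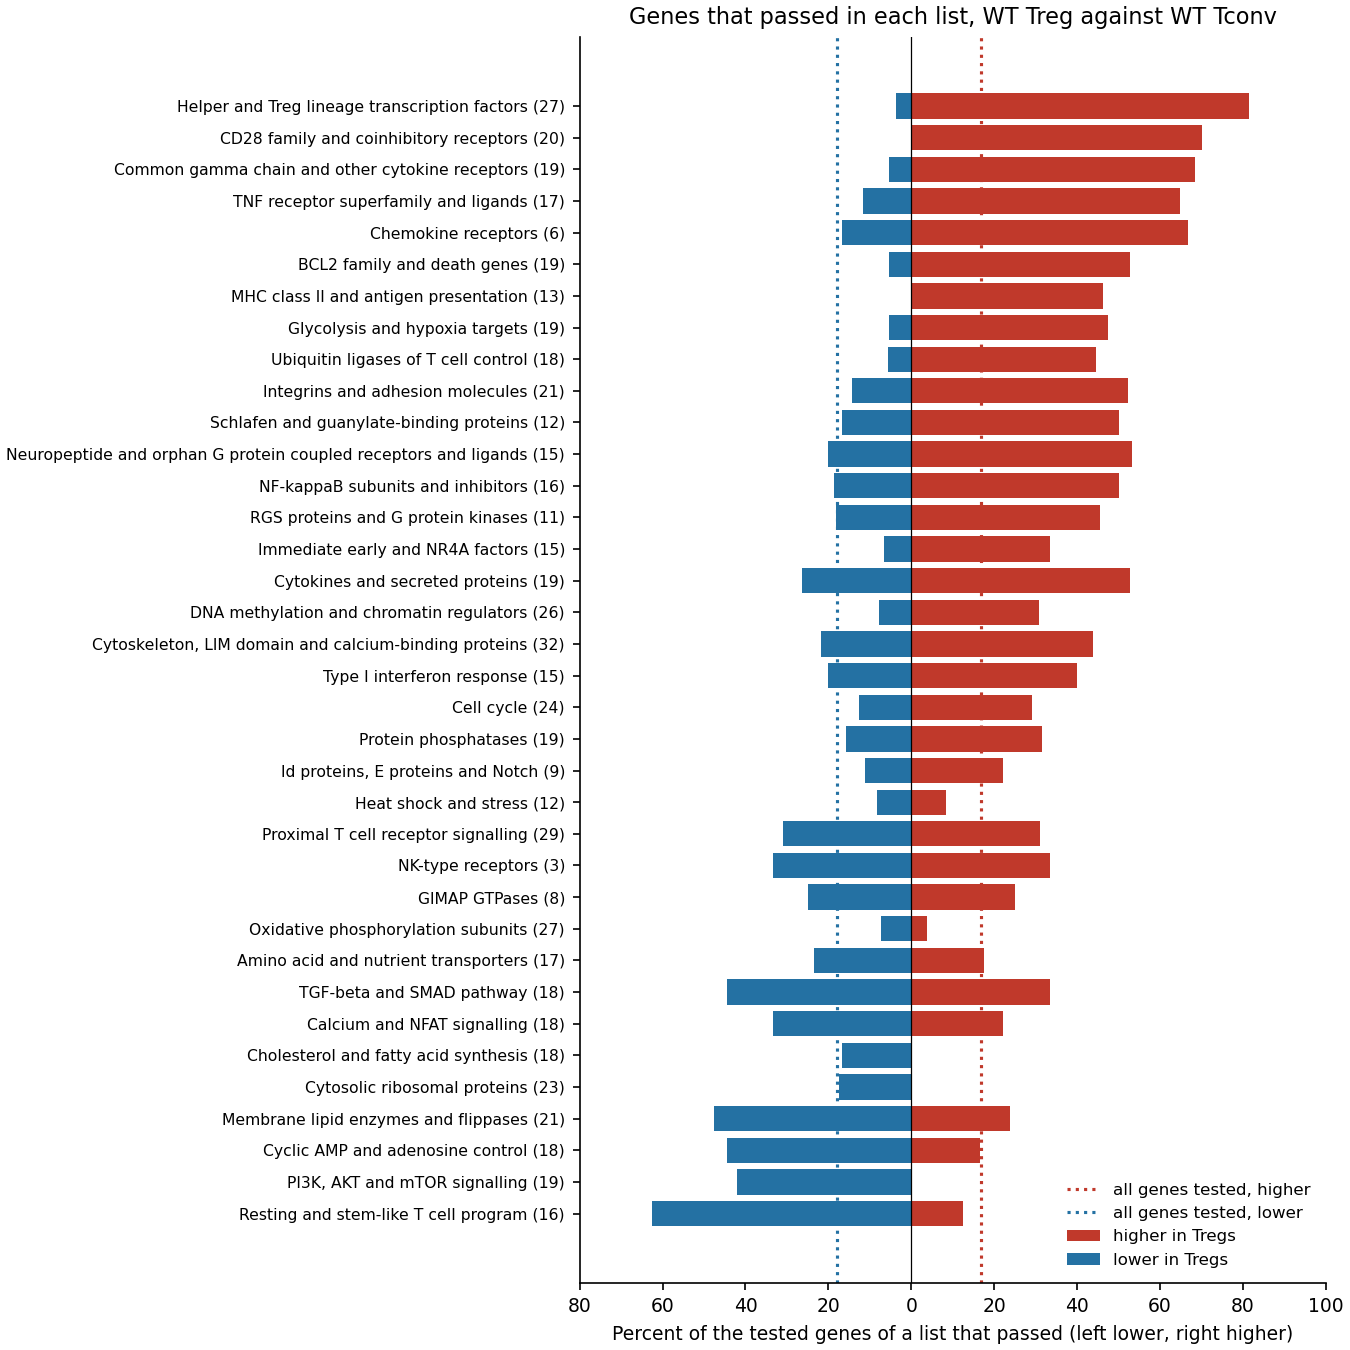
Percent of the tested genes of each list shown that passed as higher (red, to the right) or lower (blue, to the left) in Tregs, with the number tested in brackets. The dotted lines give the same over all 8139 genes, 16.7% higher and 17.9% lower. The lineage factors stand at the top with 22 of 27 higher, and the resting T cell genes at the bottom with 10 of 16 lower.

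Transcription factors of the helper and Treg lineages were mostly higher in Tregs. Of 27 tested, 22 were higher and 1 was lower, with a median difference of 1.32 against -0.025 over all genes. Ikzf2, which encodes Helios, was well above background in both cell types, with 12.60, 12.41, 12.42 and 12.45 in Tregs and 9.06, 9.06, 8.91 and 9.06 in Tconv. The difference of 3.45 had the smallest SE among the 20 largest rises, 0.0721. Ikzf4, which encodes Eos, rose by 3.67 and Nfil3 by 1.84, whereas Ikzf1, which encodes Ikaros, was the one that fell, from 11.81 to 11.90 in Tconv to 11.18 to 11.31 in Tregs (-0.61). Irf4 (1.93) and Prdm1 (1.64), factors of effector Tregs and of plasma cells, also rose.

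Genes of resting and stem-like T cells moved the other way. Of 16 tested, 10 were lower and 2 higher, with a median of -0.38. Themis, a T cell adaptor needed for thymic selection, fell by 1.75, from 9.39, 9.23, 9.14 and 9.09 in Tconv to 7.41, 7.46, 7.54 and 7.44 in Tregs. Nsg2 fell by 2.23 and the actin cross-linker Actn1 by 1.32. The chromatin organiser Satb1 (-0.74) and the Wnt pathway factor Lef1 (-1.27) fell as well, with no overlap between the groups.

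The Id proteins, which block E protein transcription factors, moved in opposite directions. Id2 measured 9.17, 9.53, 9.30 and 9.59 in Tregs and 10.85, 10.93, 10.96 and 10.90 in Tconv, a difference of -1.51 (SE 0.124). Id3 measured 9.49, 9.43, 9.03 and 8.82 in Tregs and 7.82, 8.05, 7.88 and 7.32 in Tconv, a difference of 1.42 (SE 0.153). In both cases every Treg array lay on one side of every Tconv array. Of the 9 genes of the Id, E protein and Notch list, 2 were higher, 1 was lower and 6 did not pass. The share that passed, 33.3%, lay near the 34.6% of all genes.

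Immediate early genes, which report recent T cell receptor signals, were higher for 5 of 15 and lower for 1. The 40% that passed lay near the 34.6% of all genes. The nuclear receptors Nr4a3 (1.35), Nr4a2 (1.34) and Nr4a1 (1.32) and the zinc finger factor Egr2 (1.07) rose by similar amounts. Nr4a1, also called Nur77, measured 9.17, 9.20, 9.17 and 8.99 in Tregs and 7.77, 8.02, 7.86 and 7.63 in Tconv. The one that fell was Ier2 (-0.47, adjusted p = 0.0346 in limma), which did not pass when any WT array other than WT Tconv 4 was left out (-0.50 to -0.44).

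Cytokine receptors were mostly higher in Tregs, with 13 of 19 higher and 1 lower and a median of 0.71. The IL-2 receptor beta chain Il2rb, shared with the IL-15 receptor, measured 11.14, 11.37, 11.18 and 11.27 in Tregs and 8.26, 8.53, 8.18 and 8.49 in Tconv. Its difference of 2.88 (SE 0.124) started from a Tconv level well above background, unlike that of Il2ra. The IL-12 receptor chain Il12rb1 (1.41), the IL-10 receptor chain Il10rb (0.98), the IL-18 receptor Il18r1 (0.94) and the type I interferon receptor Ifnar2 (0.71) rose less.

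Genes of the TNF receptor superfamily were higher for 11 of 17 and lower for 2, with a median of 0.74. Tnfrsf4 measured 10.63, 10.58, 10.36 and 10.10 in Tregs and 7.15, 7.06, 6.88 and 6.92 in Tconv. Tnfrsf9 (4-1BB) rose by 2.71, the TNF receptor Tnfrsf1b by 2.37 and Tnfrsf18 (GITR) by 1.46. The signalling adaptor Traf1 (1.49) and the ligand Tnfsf11, known as RANKL (1.45), rose with them.

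Of the CD28 family and related receptors, 14 of 20 were higher and none was lower. Without WT Treg 4 the counts were 14 and 1. The inhibitory receptor gene Pdcd1, which encodes PD-1, measured 7.78, 7.94, 8.11 and 7.89 in Tregs and 5.59, 5.41, 5.97 and 6.10 in Tconv, a difference of 2.16 (SE 0.133). Icos rose by 1.31 and Cd200 by 1.93. Cd86, a ligand of CD28 and CTLA-4 known mainly from antigen presenting cells, rose by 2.27, from 4.77 to 5.19 in Tconv to 7.08 to 7.52 in Tregs. Cd28 itself had a difference of -0.02 and did not pass.

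Homing and adhesion genes changed in both directions. Among 6 chemokine receptors tested, Ccr6 (2.63), Cxcr5 (1.29), Ccr2 (1.16) and Cxcr3 (1.01) were higher, Cxcr6 was lower, and Ccr9 (0.26) did not pass. Another probe set of Ccr9 gave 0.54 and passed as higher. Cxcr6 measured 5.28, 5.13, 5.64 and 5.41 in Tregs and 7.91, 8.35, 7.87 and 8.45 in Tconv. Of 21 integrins and adhesion molecules, 11 were higher and 3 lower. Nrp1, the semaphorin receptor neuropilin 1, measured 10.03, 10.35, 10.23 and 10.12 in Tregs and 6.85, 6.65, 6.85 and 7.20 in Tconv, a difference of 3.30 (SE 0.124). The integrin Itgae (CD103, 3.19), Alcam (2.98), Epcam (2.48) and the matrix protein Ecm1 (2.37) rose too, while the semaphorin Sema4a fell by 2.23.

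The 3 NK-type receptors tested were split. Klrg1 measured 8.64, 8.74, 9.33 and 8.07 in Tregs and 4.97, 5.54, 4.51 and 4.73 in Tconv. Klrd1, which encodes CD94, measured 2.86, 4.24, 3.35 and 5.10 in Tregs and 7.75, 7.66, 7.79 and 7.86 in Tconv. Its Treg arrays were spread over more than 2 log2 units with the highest on WT Treg 4, and the Tconv arrays lay close together. Cd7 had a difference of -0.23 and did not pass.

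Some genes of innate-like T cells shared the low Treg level of Cxcr6 and Klrd1. They were picked after their values were seen and serve as description only. Zbtb16, the master factor of NKT cells, measured 3.31, 3.64, 3.28 and 3.08 in Tregs and 5.12, 5.88, 5.44 and 4.69 in Tconv (-1.95). The gamma chain variable gene Trgv1 (-2.35) and the Ly49 receptor Klra16 (-2.59) were lower as well. The choice covers only genes that were lower, and the NK cell genes Eomes (0.92) and Nkg7 (0.89) went the other way. Klra16 belongs to a family of near-identical genes, so its probe set may read several of them.

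Genes that control cyclic AMP, a second messenger that dampens T cell activation, were lower for 8 of 18 and higher for 3. Beside Pde3b, the phosphodiesterase Pde7a (-0.67) and the adenylate cyclases Adcy6 (-1.12) and Adcy7 (-0.75) fell, so enzymes that make and enzymes that break down cyclic AMP were both lower. The pair of surface enzymes that turn extracellular ATP into adenosine was higher. Nt5e (CD73) measured 10.10, 10.33, 10.41 and 10.19 in Tregs and 7.41, 7.56, 7.74 and 7.76 in Tconv, a difference of 2.64 (SE 0.142). Entpd1 (CD39) measured 5.23, 5.68, 5.80 and 5.26 against 3.11, 3.35, 3.26 and 3.04, a difference of 2.30 (SE 0.174) from a Tconv level near background.

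Receptors that signal through cyclic AMP changed in both directions. The prostaglandin E2 receptor Ptger2 measured 8.83, 8.98, 9.18 and 9.03 in Tregs and 5.67, 5.89, 5.56 and 5.95 in Tconv, a difference of 3.24 (SE 0.196). The second such receptor, Ptger4, rose by 0.89 while the VIP receptor Vipr1 fell. In the whole list of neuropeptide and orphan receptors and their ligands, 8 of 15 were higher and 3 lower, among them Gpr15, a homing receptor for the large intestine (3.29), and Gpr174 (0.96). Of 11 RGS proteins and G protein kinases, 5 were higher and 2 lower, with Rgs16 at 2.99 and the receptor kinase Grk6 at -0.50.

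Proximal T cell receptor genes were divided evenly, with 9 of 29 higher and 9 lower and a median of 0.02. The TEC family kinases Tec (-1.20) and Txk (-0.87) fell together with Themis, and the adaptor Sh2d1a (SAP) rose by 0.57. Cd4 measured 7.16, 7.21, 7.43 and 7.19 in Tregs and 7.94, 8.03, 8.18 and 7.69 in Tconv, a difference of -0.71 (SE 0.0991). Cd8a measured 6.27, 6.63, 6.61 and 6.22 in Tregs and 4.22, 4.16, 3.65 and 4.29 in Tconv, a difference of 2.35 (SE 0.182). Its partner chain Cd8b1 overlapped between the groups, with a difference of 0.08 that did not pass.

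Calcium and NFAT genes were lower for 6 of 18 and higher for 4 (55.6%, against 34.6% of all genes). The calcium channel gene Orai2 fell by 0.78, and the calcium sensor Stim2 (0.52) and the calcineurin catalytic subunit Ppp3ca (0.77) rose. Of 19 phosphatases, 6 were higher and 3 lower (47.4%, against 34.6% of all genes). Ptpn13 rose by 2.60 and the AKT phosphatase Phlpp1 by 2.21, and Dusp10, which acts on stress-activated MAP kinases, fell by 1.19.

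The PI3K, AKT and mTOR list was one of those with no higher gene. Of 19 tested, 8 were lower (42.1%, against 34.6% of all genes in either direction) and 11 did not pass, with a median of -0.22. The kinase Sgk1 measured 8.55, 8.39, 8.42 and 8.64 in Tregs and 10.86, 10.83, 11.05 and 10.76 in Tconv, a difference of -2.38 (SE 0.0909). Every Treg array lay more than 2 below every Tconv array. The regulatory subunit Pik3r5 (-1.01), the catalytic subunit Pik3cd (-0.59) and Rictor of mTOR complex 2 (-0.68) fell less, and so did Pdk1 (-1.27), which under this symbol is pyruvate dehydrogenase kinase. Other probe sets of Rictor gave -0.61 to -0.18, and of these only the one at -0.61 passed.

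Cytoskeletal genes were higher for 14 of 32 and lower for 7. The actin capping protein Capg measured 7.94, 7.80, 8.01 and 7.73 in Tregs and 4.78, 5.03, 4.60 and 4.93 in Tconv, a difference of 3.04 (SE 0.128). Coro2a (2.82) and Swap70 (2.43) also rose. The LIM domain gene Pdlim1 fell by 1.31, in the same direction as Pdlim4. The Rac exchange factor Tiam1 rose by 3.01, while the GTPase activator Arhgap29 and the Rap exchange factor Rasgrp2 (-0.76) fell.

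Enzymes of membrane lipids were lower for 10 of 21 and higher for 5. Beside Atp8b4 and St3gal6, the acyltransferase Mboat1 (-1.85), the fatty acid elongase Elovl7 (-2.30) and the sphingomyelin synthase Sgms1 (-1.31) fell. Sgms1 measured 8.97, 8.91, 9.16 and 9.19 in Tregs and 10.32, 10.44, 10.28 and 10.44 in Tconv. The phospholipase Plcb4 rose by 1.36.

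Genes of oxidative phosphorylation, of ribosomes and of cholesterol and fatty acid synthesis passed less often than all genes. Of 27 oxidative phosphorylation subunits, 1 was higher and 2 lower (11.1%, against 34.6% of all genes), and of 23 ribosomal proteins 4 were lower and none higher, the largest being Rpl14 at -0.48. Of 18 genes of cholesterol and fatty acid synthesis, 3 were lower, among them Fdps (-0.59), and none higher. Glycolysis and hypoxia targets were higher for 9 of 19 and lower for 1 (52.6% passed), with a median of 0.15. The muscle form of enolase, Eno3, rose by 2.40 and the glucose transporter Slc2a3 by 1.38, from 9.17 to 9.44 in Tconv to 10.55 to 10.74 in Tregs. Of 17 transporters of amino acids and other nutrients, 3 were higher and 4 lower (41.2%), with Slc22a2 at 2.90 and Slc16a5 at -3.71 as the extremes.

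Secreted proteins were higher for 10 of 19 and lower for 5. Ebi3, a subunit of IL-27 and IL-35, measured 7.05, 7.28, 7.28 and 6.99 in Tregs and 4.90, 4.44, 4.12 and 4.19 in Tconv, a difference of 2.74 (SE 0.199). The cytotoxic genes split, with granzyme B (Gzmb) higher by 3.23 and perforin (Prf1) at -1.81. Prf1 measured 5.30, 5.10, 5.09 and 5.39 in Tregs and 6.62, 6.79, 7.19 and 7.51 in Tconv. The macrophage growth factor Csf1 rose by 2.57.

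Death and survival genes were higher for 10 of 19 and lower for 1. The inflammatory caspases Casp4 (1.94) and Casp1 (1.22), the BH3-only genes Pmaip1 (2.89) and Bid (1.08) and the survival gene Bcl2l1 (1.01) all rose, so promoters and inhibitors of death were both among them. NF-kappaB genes were higher for 8 of 16 and lower for 3. The subunits Rel (1.20), Nfkb2 (1.00) and Relb (0.86) and the inhibitor Tnip1 (0.71) rose, and the kinase Map3k14, which activates the alternative pathway, fell by 0.65.

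The TGF-beta receptors were split by type. Tgfbr1 measured 10.06, 9.91, 9.90 and 10.05 in Tregs and 9.01, 8.90, 8.90 and 9.02 in Tconv, a difference of 1.02 (SE 0.115). Tgfbr2 fell by 0.76 and the coreceptor Tgfbr3 by 2.10. In the whole pathway 6 of 18 were higher and 8 lower, with the BMP receptor Bmpr2 at 1.35 and the activin receptor Acvr1b at -0.88.

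In the list of ubiquitin ligases and SOCS proteins 8 of 18 were higher and 1 was lower (50%, against 34.6% of all genes). Cish, which like Socs2 is induced by STAT5, rose by 1.65, and Ndfip1, an activator of Itch-type ligases, by 0.43, while the ligase Nedd4l fell by 0.80. Cell cycle genes were higher for 7 of 24 and lower for 3 (41.7%, against 34.6% of all genes). Cdk6 was at 0.84 and the cyclin Ccnd3 at -0.49, but another Ccnd3 probe set gave -0.02 and did not pass. Chromatin regulators were higher for 8 of 26 and lower for 2 (38.5%, near the share of all genes). The remodelling ATPase Smarca2 fell by 0.73, but another of its probe sets gave -0.19 and did not pass. The deacetylase Hdac1 rose by 0.44 and the DNA methyltransferase Dnmt3a by 0.38. Other probe sets of Dnmt3a gave 0.42 to 0.84, and of these only the one at 0.42 did not pass.

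Interferon-inducible genes were more often higher than lower. Of 15 type I interferon response genes, 6 were higher and 3 lower, with Isg20 at 1.30 and Samhd1 at 1.09 but Oas2 at -1.30. Of 12 Schlafen and guanylate-binding genes, 6 were higher and 2 lower. Gbp3 measured 9.86, 9.84, 10.12 and 10.14 in Tregs and 7.53, 7.14, 7.07 and 7.55 in Tconv, a difference of 2.67 (SE 0.166), and Slfn1 fell by 0.79. Guanylate-binding genes are close paralogs, so their probe sets may share targets. Of 8 GIMAP GTPases, 2 were higher and 2 lower (50%, against 34.6% of all genes), all by less than 1.

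Antigen presentation genes were higher for 6 of 13 and none lower (46.2%, against 34.6% of all genes in either direction). The class I genes H2-K1 (0.23) and H2-D1 (0.21) and the immunoproteasome subunit Psmb8 (0.38) rose by little. The class II accessory genes H2-Oa (0.87) and H2-DMa (0.61) passed although the groups overlapped. Of the B cell markers tested, Cd79b was higher (1.15), whereas Ms4a1 (-0.30) and Cr2 (-0.26) had the opposite sign and did not pass. H2-DMa did not pass without WT Treg 2 (0.52) or 4 (0.50) or without WT Tconv 2 (0.55) or 4 (0.53). Of 12 heat shock and stress genes, Xbp1 rose by 0.67, Trib3 fell by 0.86 and 10 did not pass.

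Some genes of other cell types varied widely between arrays of the same group. The neutrophil gene S100a8 measured 3.58, 6.02, 8.24 and 10.35 in Tregs and 8.87, 5.77, 5.28 and 9.23 in Tconv. Lyz2, of monocytes and neutrophils, measured 5.33, 8.02, 7.82 and 9.81 against 8.22, 6.87, 5.84 and 8.65. The plasma cell gene Jchain measured 2.31, 8.01, 7.61 and 9.13 against 8.62, 6.12, 5.87 and 8.18. All 3 were lowest on WT Treg 1 and highest on WT Treg 4, and none passed.

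The summed levels of the neutrophil, monocyte and macrophage, B cell, NK cell, erythroid, platelet and stromal lists overlapped between the groups. The log2 of the summed level of 8 neutrophil genes ran from 6.44 to 11.88 in Tregs and from 7.41 to 10.70 in Tconv. For 10 monocyte and macrophage genes it ran from 8.41 to 10.82 and from 8.01 to 9.49, and for 9 B cell genes from 7.63 to 9.40 and from 7.42 to 9.45.

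Other lists did not overlap. The sums add unlogged levels, so the most highly expressed gene of a list weighs most. That was Xbp1 (mean 10.59 in Tregs and 9.92 in Tconv) for plasma cells and Cst3 (9.81 and 9.31) for dendritic cells. In the overlapping stromal list it was Pecam1 (7.47 and 7.74). The summed level of 5 plasma cell genes ran from 10.84 to 11.25 in Tregs and from 10.10 to 10.54 in Tconv, that of 7 dendritic cell genes from 9.89 to 10.25 and from 9.24 to 9.71, and that of 2 CD8 T cell genes from 7.11 to 7.46 and from 6.20 to 6.53. For the 2 gamma delta T cell genes matched it ran from 4.38 to 4.76 and from 4.79 to 5.08, and both were untested and under 5 on all 8 arrays. Among the plasma cell genes Xbp1 (0.67), Irf4 (1.93) and Prdm1 (1.64) passed as higher, Jchain did not pass and Tnfrsf17 was under 5 on all 8 arrays. Of the CD8 T cell genes Cd8a passed and Cd8b1 did not. Of 5 NK cell genes tested, the transcription factor Eomes (0.92) and the granule protein gene Nkg7 (0.89, but 0.71 and not passed without WT Tconv 3) were higher, Klrd1 and Prf1 were lower and Tyrobp did not pass, while the other 4 matched, Ncr1, Klrb1c, Klra8 and Gzma, were under 5 on all 8 arrays. The part of other cells in these differences was not tested.

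Within the lists of neutrophils, B cells, monocytes and macrophages, single markers mostly did not pass. None of the neutrophil genes passed, and 2 of the 8 were under 5 on all 8 arrays. Of 9 B cell markers matched, 6 were under 5 on all 8 arrays and only Cd79b passed, as did Irf8 (1.62) and Cst3 (0.50) among 7 dendritic cell genes, of which 5 were under 5. C1qa (1.74) and Ccr2 passed among 10 monocyte and macrophage genes. Neither C1qa nor Cd79b held up well in WT mice when single arrays were left out. C1qa did not pass when any of the 4 Treg arrays or WT Tconv 2 or 3 was left out, and was at 1.32 (adjusted p = 0.143 in limma) without WT Treg 4. Cd79b did not pass without WT Treg 2, 3 or 4 or WT Tconv 2, 3 or 4, and was at 1.01 (adjusted p = 0.0919 in limma) without WT Treg 4. In KI mice C1qa (2.13, adjusted p = 0.0134 in limma) and Cd79b (1.38, adjusted p = 0.0112 in limma) were higher in Tregs too. Cd68 did not pass in WT mice (1.12, adjusted p = 0.0611 in limma), although its arrays did not overlap. It passed in KI mice (1.24, adjusted p = 0.0332 in limma). Lyz2, Fcgr3, Mpeg1, Ms4a1 and Cr2 did not pass in either genotype. All 4 platelet genes and 5 of 6 stromal genes matched were under 5. Haemoglobin alpha ranged from 8.24 to 12.52 over both groups.

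**Figure D4:**
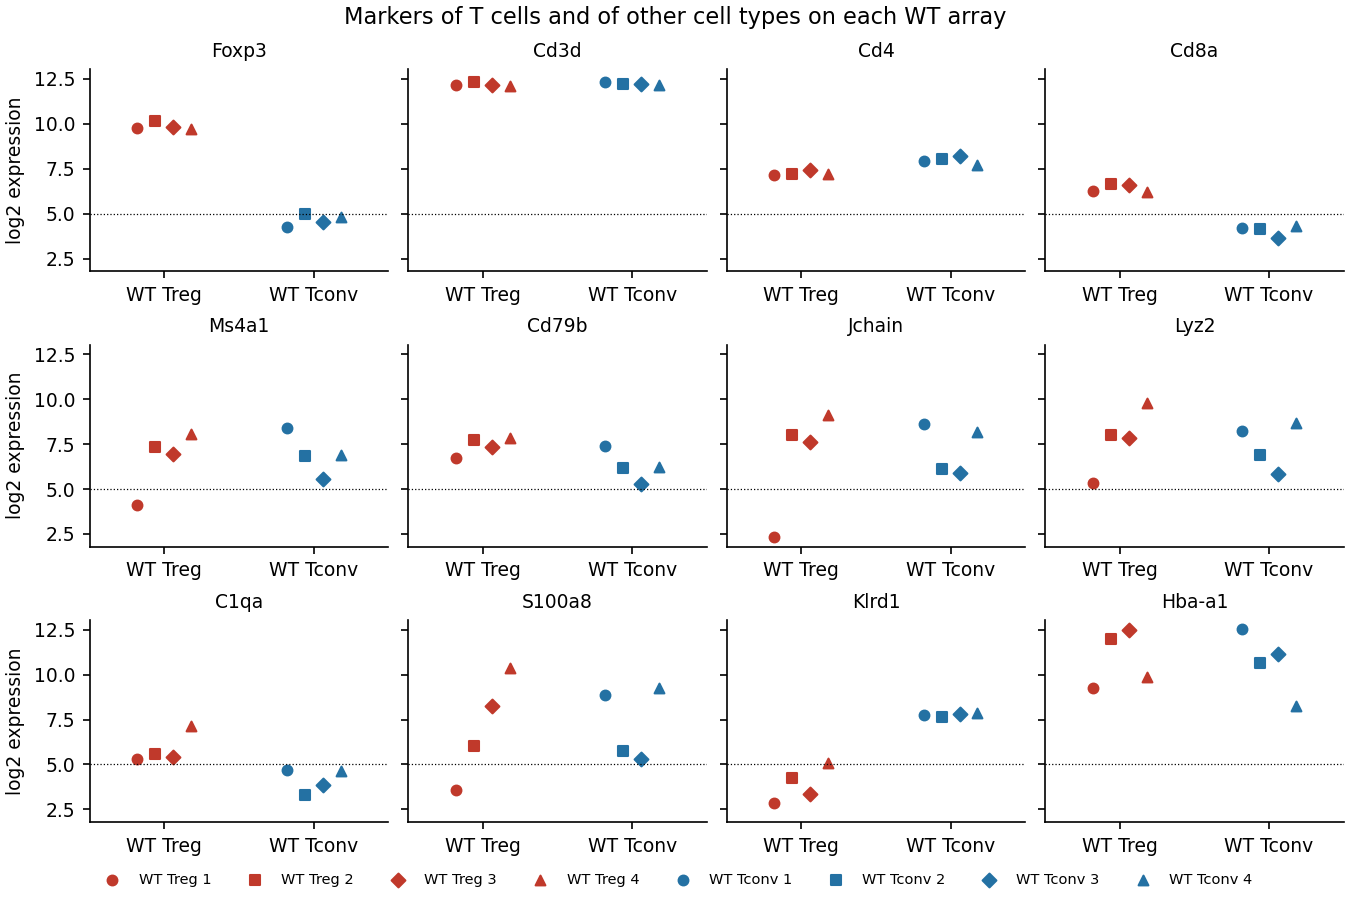
log2 expression of 12 marker genes on each WT array, Tregs in red and Tconv in blue, with a symbol for each replicate and a dotted line at 5. Foxp3, Cd4, Cd8a, C1qa and Klrd1 separate the cell types, whereas S100a8, Lyz2, Jchain and Ms4a1 vary within each, with WT Treg 1 lowest and WT Treg 4 highest among Tregs.

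WT Treg 4 was also the Treg array that most often lay nearest to Tconv. It did so for 12 of the 20 largest rises and 13 of the 20 largest falls, and for 571 of the 1272 genes that passed as lower without overlap. Among the 1254 higher ones WT Treg 1 was nearest for 454 and WT Treg 4 for 379. Without WT Treg 4, 1242 genes were higher and 1402 lower, and all of the 20 rises and 20 falls still passed. Over the lists, 227 genes were then higher and 123 lower, beside 235 and 124 with it.

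Different probe sets of a gene mostly moved together. Of 1615 further probe sets of genes that passed, 1508 (93.4%) had the same sign, and of 905 that passed themselves 898 did. The 7 opposite ones belonged to 5 genes, Atxn7l1, Cab39l, Farsb, Kctd10 and Phf20l1, named here after their values were seen. Second probe sets gave 3.45 for Il2ra and 4.75 for Ikzf2 but only -2.44 for Atp8b4, from a lower Tconv level. They were larger for Arhgap20 (4.16) and Socs2 (4.18). Other probe sets were smaller in size for Sdc4 (2.00), Cybrd1 (1.27) and Nacc2 (-2.46 and -1.34), among others. Places among the 20 largest thus depend on the probe set chosen for a gene. Over all 18621 probe sets tested, 5373 passed (28.9%), with 29.6% among probe sets of 1 listed gene, 28.4% among those of several and 27.0% among the 5359 with none. The largest differences of probe sets without a listed gene were 4.75 for number 1439794 and -4.23 for number 1453568. They lay within the ranges of the 20 largest rises (3.34 to 5.50) and the 20 largest falls (-6.05 to -2.70).

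Genes that passed were spread over the expression range and the genome. The share that passed was 49.3% among 302 genes with a mean under 5, which had entered through the arrays above that level, and between 33.1% and 35.4% in the bands above it. By chromosome it ran from 30.3% on chromosome 8 to 39.4% on chromosome 16, with 32.9% on the X chromosome.

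The same comparison in KI mice had the same sign for all 40 of the largest WT differences, and all 40 passed there too, beside 41.1% of all genes tested. Foxp3 was 9.86 in WT and 9.76 in KI Tregs on average, and the Treg minus Tconv difference was 5.23 in WT and 6.07 in KI mice (interaction adjusted p = 0.106 in limma). Penk was 4.14 in WT and 3.24 in KI mice, and Pdlim4 -6.05 and -5.50. A test of whether the difference itself differed between genotypes passed for 64 of 8139 genes (0.786%), higher in KI mice for 54 (0.663%) and lower for 10 (0.123%), and among the 40 for Klrg1 and Ikzf2. Klrg1 had a difference of 3.76 in WT and 5.73 in KI mice (interaction 1.97, adjusted p = 0.00505 in limma), and Ikzf2 of 3.45 and 4.20 (interaction 0.75, adjusted p = 0.00139 in limma). The count of 64 was 104 without KI Tconv 4, 37 without KI Treg 1 and 42 without WT Treg 1.

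**Figure D5:**
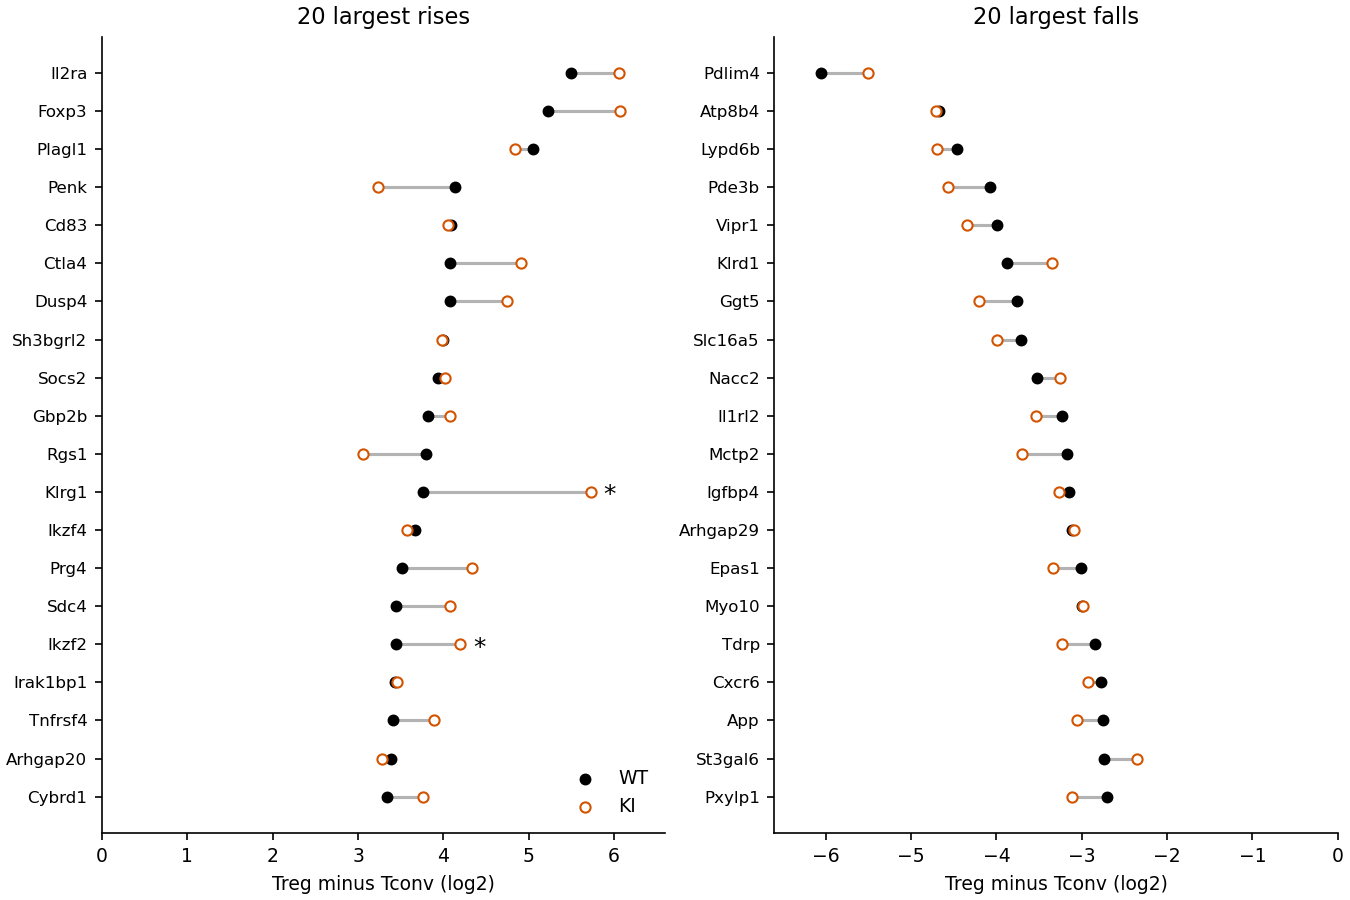
Treg minus Tconv difference (log2) in WT mice (black) and KI mice (open orange) for the 20 largest WT rises and 20 largest WT falls. Stars mark genes whose difference passed as unequal between genotypes, Klrg1 (3.76 and 5.73) and Ikzf2 (3.45 and 4.20). All 40 pairs have the same sign.

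Among the 1360 genes higher in WT Tregs, the interaction passed for 43 with a larger difference in KI mice, for 2 with a smaller one, Pon3 (2.83 in WT and 1.79 in KI) and Crim1 (1.30 and 0.58), and for Ms4a4c, which was at 0.59 in WT and -0.13 in KI mice. Among the 1458 lower genes it passed for 5 with a larger difference in KI mice, Emb, Rasgrp2, Sema4a, Tgfbr2 and Tgfbr3, and for 1 with a smaller one, Usp28 (-1.32 and -0.75). For 2 lower genes the sign turned, Chdh (-0.59 and 1.30, where the WT difference did not pass without WT Treg 1 or 3 or WT Tconv 2 or 3) and Emp1 (-0.82 and 0.98). These genes were named after their values were seen, where the rule had not named them. In KI mice 11 of the higher and 23 of the lower genes had the opposite sign.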

How the data were processed

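Expression was deposited as log2 values, which the authors had obtained with RMA (background subtraction, equalised array distributions, summary of each probe set) in Partek 6.5, per the submitters' processing notes. Its options are not given in the sources used here. Cells were lysed right after the sort, and cRNA was labelled by the 3' IVT Express method of Affymetrix, per the labels' protocols. The number of arrays, 4 per group, limits the precision.

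Of 45141 probe sets, 28898 had 1 listed gene. Each of 17097 genes was represented by the 1 of its probe sets whose mean over the 16 arrays was highest, and the 8139 that exceeded a log2 value of 5 on 4 or more arrays were tested. In limma 3.58.1 (R 4.3.3), group means were fitted to the 16 arrays together, with variances that followed a trend on expression. Tests were two-sided, with Benjamini-Hochberg adjustment over the 8139 genes and a threshold of 0.05 on the adjusted p. Alternatives changed the samples, filter, probe set choice, scaling and array weights, took runs of array numbers as a block, or left out each array.

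The gene lists and markers were chosen with earlier results of these data known, and so were the comparison and its members. The genes named are the 20 largest rises and 20 largest falls that passed without overlap, the members with the smallest p in each list (at most 6), the marker genes above the filter, and Foxp3, Il2ra, Ctla4 and Pde3b. Genes outside the rule are said to have been chosen after their values were seen. The counts of 1 list are not reported here.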

Additional observations from a re-analysis of the deposited data

Results flagged for a closer look

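On 17 of 384 groups of 4 arrays, 1 array lay far from the other three, and chance alone marks about 1 in 20 groups. The share of the group's range taken up by its gap was as follows. WT Treg 4 stood apart for C1qa (0.848), Cxcr3 (0.891), Nr4a1 (0.849), Pik3r5 (0.855), Pmaip1 (0.941) and Slc2a3 (0.900). WT Tconv 4 did so for Ctla4 (0.879), Phlpp1 (0.947) and Ptpn13 (0.854), and WT Tconv 3 for Cxcr3 (0.869), Egr2 (0.834), Ikzf2 (0.955) and Nkg7 (0.838). WT Tconv 2 did so for Nr4a3 (0.840) and Psmb8 (0.878), WT Tconv 1 for Trib3 (0.874) and WT Treg 2 for Emb (0.848).

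The Treg minus Tconv difference was unequal between genotypes, by the interaction test in limma, for 24 of the genes described. It was higher in KI than in WT mice by 1.97 for Klrg1, 1.74 for Ccr2, 1.49 for Itgae, 1.29 for Gzmb, 1.21 for Prdm1 and 1.10 for Nfil3. It was higher by 1.05 for Ccr6, 1.03 for Tiam1, 0.95 for Icos, 0.83 for Tnfrsf1b, 0.82 for Nrp1, 0.79 for Ccr9 and 0.75 for Ikzf2. The interaction was -0.94 for Sema4a, -0.61 for Tgfbr3, -0.57 for Rasgrp2, -0.48 for Emb and -0.44 for Tgfbr2, genes that were lower in WT Tregs and fell further in KI Tregs. It was -1.04 for Pon3 and -0.72 for both Crim1 and Ms4a4c, which were higher in WT Tregs, and 1.89 for Chdh, 1.80 for Emp1 and 0.57 for Usp28, which were lower.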

How the results depend on the processing

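The count of 2818 genes ran from 2443 to 2675 when each WT array was left out and from 2500 to 3409 under the other alternatives tested per gene. Testing every probe set separately gave 5373 of 18621, a larger number tested. The count of 64 genes whose Treg difference was unequal between genotypes ran from 37 to 104 when each array was left out. Of 182 genes described that passed, 171 passed with the same sign under every alternative in which they could be tested, and the exceptions were C1qa, Cd79b, Chdh, H2-DMa, Ier2 and Nkg7 and the 5 genes whose probe sets disagree. Between WT Treg 4 and WT Tconv 4 alone, with no test, all 182 had the same sign, 74 moved by more than the replicate SD (62 to a smaller and 12 to a larger difference), and Nkg7 was at 0.20. With the mean of all probe sets of a gene, the sign turned for those 5, Atxn7l1 (0.02), Cab39l (-0.19), Farsb (0.02), Kctd10 (0.14) and Phf20l1 (-0.29), as their opposite probe sets entered the mean. Among genes that had not passed, it turned for Cd28 (0.00 with the mean of all probe sets, -0.06 to 0.01 with each WT array left out) and Cd8b1 (-0.01 to 0.15 with each WT array left out). With runs of array numbers as a block, 3127 genes passed. Levels near background limit the folds. No paired analysis was possible because the array numbers in the titles are not shared between the groups and the replicate numbers only follow the order of the samples.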
